A study of Mus musculus with 12 samples.

Results

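Heparan sulfate is a sulfated sugar chain carried by proteoglycans of the cell surface and matrix, and the genes described here are those that build the chain, modify it and provide the core proteins that carry it. The members were chosen by name: every array probe whose gene name is 1 of 39 listed genes, in both regions and both genotypes. Probes of that name were found for 36 of the 39, out of 27573 genes on the array, with 60 probes in all. The material was neurons taken by laser capture from the entorhinal cortex, in its medial part (MEC) and its lateral part (LEC), of female C57BL/6 mice aged 2 months. Naglu-/- mice, which lack the lysosomal enzyme alpha-N-acetylglucosaminidase and model Sanfilippo syndrome type B, were paired with Naglu+/- littermates as unaffected controls, so the controls too carry 1 disrupted allele. Each region had 3 such pairs. Each pair was hybridised on 2 dual-dye arrays with the dyes exchanged, which gives 12 arrays. Cells were collected from cresyl violet stained sections with 500 neurons per region, and their RNA was amplified before labelling.

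Chain synthesis begins on a serine of the core protein, where xylose, a pair of galactoses and glucuronic acid are added as a linker. Exostosins then extend the chain from alternating glucuronic acid and N-acetylglucosamine, and sulfotransferases and an epimerase modify it as it grows. Cells later take chains up into lysosomes, where Naglu removes N-acetylglucosamine from their ends, and without Naglu chain fragments accumulate. In the brain, the pattern of sulfates on the chain sets how growth factors, guidance cues and synaptic adhesion proteins bind to it.

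The facts of the whole series that touch the values are these. The share of spots well above background was 48.2% to 67.9% by array in Cy3 and 14.8% to 30.4% in Cy5. The number of arrays limits the precision of every value. Naglu itself gave no check of the genotype labels: all 12 Cy3 readings of its brighter probe but 0 of 12 in Cy5 were above background, its mutant over control log2 ratios lay between −0.04 and 0.09 by pair, and whether the probe covers what was disrupted is not known. For replicate 2 of both regions, the direction of the ratios followed the authors' value table and opposed the labelled dyes on 4 arrays. Files of 5 of the 6 LEC arrays were likewise assigned to samples by their match to that table. In that direction pairs 2 and 3 of a region ran against each other: over 10744 genes, which are not independent replicates, their ratios correlated at −0.582 in MEC and −0.466 in LEC, and at 0.582 and 0.466 with replicate 2 turned as labelled. Correlations with pair 1 lay between −0.0937 and 0.0937 either way. Mean ratios of 12 microglial genes, in turn, were above 0 in all 6 pairs in the value table's direction (0.196 to 0.521) and became −0.303 and −0.521 in the pairs numbered 2 when turned. The direction of replicate 2 is therefore not settled, and every mutant over control value of a pair numbered 2 is open in sign. All MEC arrays were scanned in 1 session and all LEC arrays in another, so region and scan session cannot be told apart. After filtering 5 excitatory neuron markers were retained, while Slc17a7 and Syt1 were not, and 7 of 11 oligodendrocyte markers were also retained. Nothing in the labels ties an MEC pair to an LEC pair by mouse. Since the RNA comes from captured tissue, fewer cells of a type and less RNA per cell cannot be told apart.

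The 4 promoter windows below belong to the genes on which the results turn. Extl2 had the largest level difference in favour of MEC and Gpc3 the largest in favour of LEC. Ust had the lowest mean mutant over control ratio in LEC. The windows were chosen after the values had been seen. Each line gives the 250 bases before a start site of the gene in RefSeq's mouse assembly GRCm38.p6, read 5′ to 3′ on the gene's strand, and capitals mark the motifs GGGCGG (the GC box), CACGTG (an E-box), CCAAT and TATAAA, searched on both strands.
Extl2, upstream start, chr3:116007199-116007448, plus strand: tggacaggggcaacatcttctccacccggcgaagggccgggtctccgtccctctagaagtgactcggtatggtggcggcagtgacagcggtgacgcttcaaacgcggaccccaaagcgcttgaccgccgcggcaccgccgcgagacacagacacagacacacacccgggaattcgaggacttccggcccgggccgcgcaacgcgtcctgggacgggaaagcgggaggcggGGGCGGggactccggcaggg
Extl2, downstream start, chr3:116008047-116008296, plus strand: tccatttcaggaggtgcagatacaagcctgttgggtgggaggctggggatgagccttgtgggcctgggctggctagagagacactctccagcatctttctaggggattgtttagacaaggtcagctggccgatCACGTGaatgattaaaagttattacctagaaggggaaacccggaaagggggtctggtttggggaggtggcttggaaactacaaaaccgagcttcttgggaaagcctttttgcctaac
Gpc3, chrX:52613975-52614224, minus strand: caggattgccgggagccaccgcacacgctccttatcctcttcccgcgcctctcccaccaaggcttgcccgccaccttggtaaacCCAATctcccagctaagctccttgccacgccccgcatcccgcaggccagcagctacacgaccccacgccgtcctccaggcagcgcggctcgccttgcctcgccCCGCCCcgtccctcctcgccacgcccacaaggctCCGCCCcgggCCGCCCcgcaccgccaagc
Ust, chr10:8518826-8519075, minus strand: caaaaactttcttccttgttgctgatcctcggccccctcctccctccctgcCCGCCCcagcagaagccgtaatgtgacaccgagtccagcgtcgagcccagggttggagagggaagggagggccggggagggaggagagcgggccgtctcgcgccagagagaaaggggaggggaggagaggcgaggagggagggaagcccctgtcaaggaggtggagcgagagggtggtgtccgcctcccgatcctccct

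The upstream Extl2 window held 1 GC box, the Gpc3 window 3 GC boxes and 1 CCAAT motif, and the Ust window 1 GC box. The downstream Extl2 window held the E-box instead and no GC box. Over all 32851 promoter windows of the same length, 32.7% held GGGCGG, 6.02% CACGTG, 33.8% CCAAT and 12.4% TATAAA. Of the 39 members, 30 had at least 1 window in the table, and 23 of their 36 windows held a GC box, 2 the E-box, 12 CCAAT and 3 TATAAA. GC content of the printed windows was 68.8% and 51.6% for Extl2, 71.6% for Gpc3 and 66.4% for Ust. A match is a description of these letters and not evidence of binding.

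Detection came first, because a gene that stays near background has no readable ratio. A gene was retained where, in 1 region and 1 genotype, 4 or more of 6 readings of a probe stood well above background, and 25 members passed, represented by their brightest probe. Of these, 15 were above background in all 24 readings. They span the whole route: Xylt1 and Xylt2, the xylosyltransferases that start the linker; Ext2, a subunit of the chain polymerase; Extl2 and Extl3, transferases of the exostosin family; Ndst1, which replaces acetyl by sulfate on glucosamine; Glce, the epimerase that turns glucuronic into iduronic acid; the O-sulfotransferases Hs6st1, Hs6st2, Hs3st1 and Ust; Papss1 and Ugdh, which make the sulfate donor and UDP-glucuronic acid; and the cores Gpc1 and Sdc3. For comparison, 46.1% of the 10744 genes retained were above background in all 24 readings.

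The other 10 retained members were read in part of the arrays, and more often in LEC than in MEC. B3gat3 (which closes the linker with glucuronic acid), Ndst2, Ndst3, Hs6st3, the sulfatases Sulf1 and Sulf2, and the cores Gpc3, Gpc4, Sdc2 and Sdc4 were above background in 52 of 60 Cy3 readings in MEC and 57 of 60 in LEC. In Cy5 the counts were 20 of 60 in MEC and 49 of 60 in LEC. Per array, Cy5 detection over all spots was 14.8% to 29.4% in MEC and 24.3% to 30.4% in LEC, so this part of the difference moves with the scan session as well as with the region, and its part in the result was not tested. Gpc3 had the widest gap, with 4 of 12 readings in MEC, all in Cy3, and 12 of 12 in LEC. Gpc3 and Sulf1 passed the filter through LEC alone, so for them the gap was in part built into the choice. Not every gene leaned to LEC. B3gat3, which passed through MEC alone, was above background in 5 of 12 readings in MEC and 4 in LEC. Hs6st3 had 12 in MEC and 11 in LEC, and Sdc4 had 9 in each region.

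A further 11 members had a probe but none that passed. Ext1, the partner of Ext2 in the polymerase, was above background in 8 of 24 readings, and B4galt7, which adds the first galactose of the linker, in 9. Hs2st1, which sulfates iduronic acid, reached 7 of 24 at its better probe, Hpse, the heparanase, 11 of 24, and Gpc6 11 of 24. Every one of these readings was in Cy3. Hs3st2 reached 6, Extl1 4, Gpc5 4, Ndst4 3, Gpc2 1 and Sdc1 1 of 24. Gpc5 was read in MEC alone, in 4 of 12 readings there and 0 of 12 in LEC. These genes were not well above background, which sets no upper limit that could be compared with another gene, and they enter no test. The 3 other listed genes, Hs3st4, Hspg2 (perlecan) and Agrn (agrin), had no probe of that name. A gene called Agrin on the array resolved to Agrn by accession; it lies outside the rule, and its brightest probe was above background in 24 of 24 readings.

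**Figure D1:**
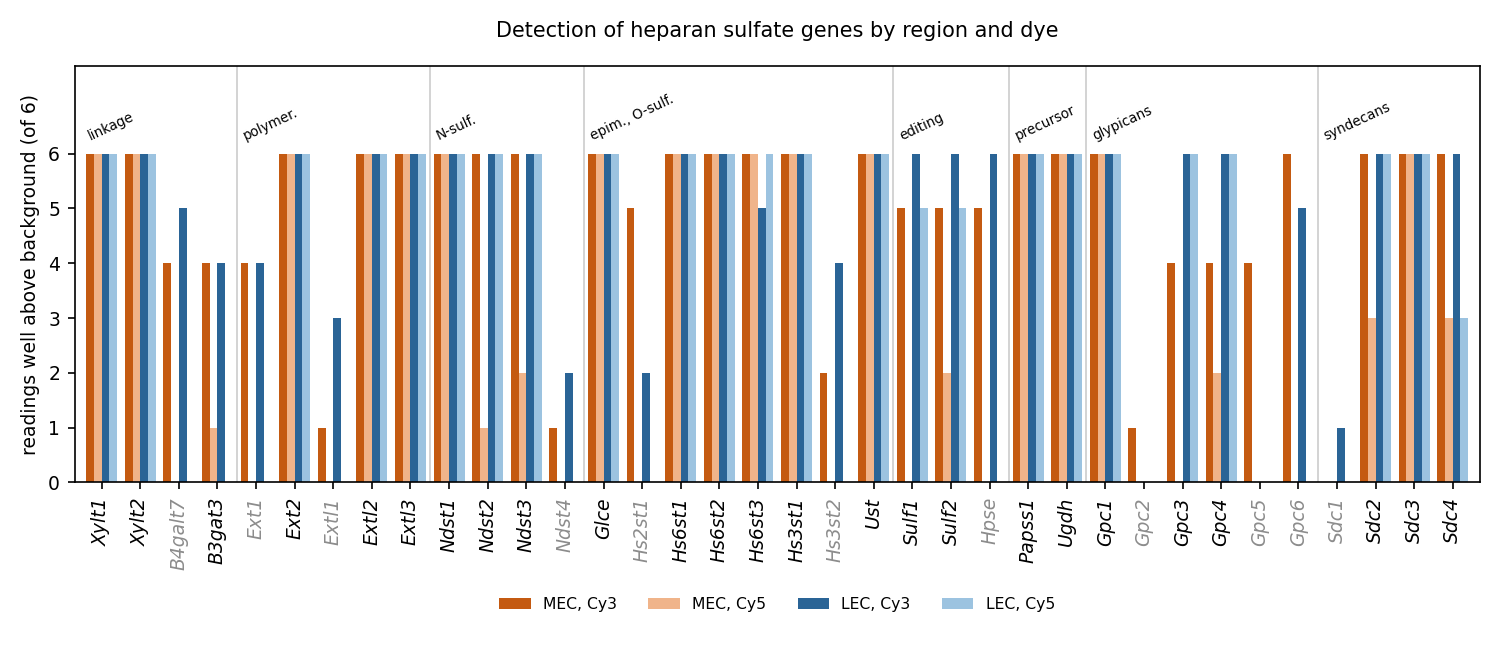
Bars give, for each of the 36 members with a probe, the number of readings well above background out of 6 in each region and dye, at the probe used (black names) or, where none passed the filter (grey names), at the probe read most often. The 15 members read in all 24 readings show 4 full bars, and Gpc3 shows 4, 0, 6 and 6 for MEC Cy3, MEC Cy5, LEC Cy3 and LEC Cy5.

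Whether loss of Naglu altered the RNA of these genes was asked in each region, averaged over both regions, and as a difference between the regions. No member passed an adjusted p of 0.05 in limma in any of the 4 comparisons, and the background was the same, with 0% of 10744 genes called in MEC, in LEC, over both regions and for the difference. At an unadjusted p under 0.05 the members' counts were 0 of 25 in MEC (background 1.12%), 1 of 25 in LEC (1.54%), 0 of 25 over both regions (2.18%) and 1 of 25 for the difference between regions (0.521%), and both of the single genes were Ust. With replicate 2 turned as labelled there were again 0 calls in limma after adjustment, among members and over all 10940 genes then retained, but the unadjusted counts rose. They were then 2 of 24 members in MEC (background 11.3%), 2 of 24 in LEC (9.88%), 1 of 24 over both regions (12%) and 2 of 24 for the difference (9.04%). The members concerned were other genes: Ndst3 (−0.16) and Glce (0.31) in MEC, Gpc1 (0.38) and Extl3 (0.36) in LEC, Gpc1 (0.27) over both regions, and Glce (0.51) and Papss1 (0.23) for the difference, with limma unadjusted p-values of 0.0167 to 0.0491 and adjusted p-values of 0.376 to 0.552. B3gat3 passed the filter only in the value table's direction. In that direction, to which the values below refer unless said otherwise, the members' median log2 ratio was 0.0147 in MEC and −0.0147 in LEC, beside −0.00432 and 0.00459 over all genes. The 95% confidence interval of a region mean reached 0.222 to either side in the median member, and 0.136 to 0.533 by gene. Over both regions the 6 members of smallest p had means of −0.16 for Ust and for Hs3st1, −0.09 for Ugdh, 0.05 for Sulf1, 0.06 for Sdc2 and 0.08 for Sulf2, with a smallest limma unadjusted p of 0.0560. A p that misses the threshold does not show that mutant and control were alike.

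Ust, a uronyl 2-O-sulfotransferase known mainly from chondroitin and dermatan sulfate, had the lowest mean ratio of the 25 in LEC, at a probe of chr10:7894948-7895007 (build mm8). Its mutant over control log2 ratios were −0.23, −0.67 and −0.27 in the 3 LEC pairs and 0.12, −0.02 and 0.13 in the 3 MEC pairs. In this direction all LEC pairs lay below all MEC pairs, as they also did for Ext2 and Gpc3. How many of all genes were so separated was not counted. The Ust ratio was below 0 on 6 of 6 LEC arrays. The LEC mean was −0.39 ± 0.24 (SD, n = 3; 95% interval −0.62 to −0.16; limma unadjusted p = 0.00502, adjusted p = 0.9999). The difference between regions was 0.47, with a 95% interval of 0.14 to 0.80 (limma unadjusted p = 0.0113, adjusted p = 0.9999). With replicate 2 turned as labelled, LEC pair 2 was at 0.67, the LEC value 0.06 and the difference 0.04, so the direction rests on how replicate 2 is read. Without that pair the LEC value was −0.25. A second Ust probe, above background in 12 of 24 readings and all of them in Cy3, gave LEC ratios of −0.02, −0.08 and 0.04 and did not show the shift.

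LEC pair 2 stood apart for several members. In that pair the ratios of the 25 members had an SD of 0.374, against 0.163 and 0.240 in the other LEC pairs and 0.144 to 0.216 in MEC, while over all genes the SD was 0.233. Beyond 0.3 in size lay 7 of the 25 members there, beside 13.0% of all genes. Hs6st1, a 6-O-sulfotransferase, had LEC ratios of 0.09, −1.09 and 0.11, with 0.00, 0.28 and 0.01 in MEC. Hs3st1, a 3-O-sulfotransferase, had 0.00, −0.93 and −0.03, with 0.00, 0.08 and −0.08 in MEC. In both genes the 2 dye-swapped arrays of pair 2 were alike, at −1.26 and −0.91 for Hs6st1 and −1.02 and −0.85 for Hs3st1, while the other LEC pairs lay near 0. The LEC means were −0.29 ± 0.69 and −0.32 ± 0.53 (SD, n = 3), with 95% intervals of −0.83 to 0.24 and −0.73 to 0.10. Without pair 2 they were 0.10 and −0.012, and with replicate 2 turned 0.43 and 0.30.

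Some of the marker lists also had larger ratios in that pair. Mean log2 ratios of marker lists in LEC pair 2 were 0.617 for 9 astrocyte genes, 0.966 for 6 genes of blood, choroid plexus and meninges, 0.495 for 8 inhibitory neuron genes and 0.521 for 12 microglial genes. In the other LEC pairs they ran from −0.306 to −0.0594, from −0.706 to −0.481, from −0.221 to −0.0202 and from 0.196 to 0.243. The mean of 0.966 in pair 2 rested mainly on Dcn (2.42) and Ptgds (2.91). In that pair Ttr was at 0.50, Hba-a1 at −0.09, Col1a1 at −0.03 and Col1a2 at 0.09. In LEC pairs 1 and 3, Dcn was at −0.42 and −2.11 and Ptgds at −1.80 and −2.29. Turned, the values of pair 2 were −0.617, −0.966, −0.495 and −0.521, so that the first 3 lists had the sign of the other LEC pairs and the microglial list did not. The remaining marker lists had smaller means in LEC pair 2. These were 0.205 for oligodendrocyte, 0.204 for oligodendrocyte precursor, 0.141 for excitatory neuron and 0.0339 for vessel genes. In LEC pairs 1 and 3 they were −0.17 and −0.075, −0.0568 and 0.108, −0.141 and 0.0513, and −0.0575 and 0.0218. The part of these cell types in the ratios of Ust, Hs6st1 and Hs3st1 was not tested.

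Among the linker and polymerase genes, the ratios of Xylt2 and B3gat3 lay within 0.16 of 0, while those of Extl2, Extl3 and Xylt1 reached further. Xylt2 had −0.02, −0.08 and −0.15 in MEC and 0.13, −0.02 and 0.04 in LEC. It was the 1 member below 0 in all 3 MEC pairs, where 7.36% of all genes were so; turned, pair 2 was at 0.08 and the pattern was gone, and it was then above 0 in all 3 LEC pairs (15.1% of all genes). B3gat3 had 0.04, −0.15 and −0.05 in MEC and 0.00, −0.03 and −0.01 in LEC. Xylt1 had 0.01, −0.12 and −0.09 in MEC and −0.36, 0.14 and 0.09 in LEC, so the sign changed between LEC pairs. Extl2, described below for its level, had 0.05, −0.27 and 0.33 in MEC and 0.35, 0.10 and −0.29 in LEC. In Xylt1 and Extl2 the pairs of 1 region differed among themselves by more than the region means did. For Ext2 the MEC pairs gave 0.14, 0.17 and −0.02 and the LEC pairs −0.04, −0.15 and −0.04. The difference between regions for Ext2 was 0.18 ± 0.09 (SE; limma unadjusted p = 0.0996, adjusted p = 0.9999). Extl3, which adds the first N-acetylglucosamine of a heparan chain, had 0.26, 0.48 and −0.04 in MEC and 0.12, −0.60 and 0.35 in LEC. Means in MEC of Ext2 and Extl3, 0.10 and 0.23, became −0.01 and −0.08 with replicate 2 turned, when all 3 LEC pairs of Extl3 were above 0.

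Of Ndst2, both sulfatases and Ugdh, Sulf1 had the narrowest range over pairs. The Sulf1 probe stood above background in 5 of 12 MEC readings, none of them in Cy5. Whether dim signal narrowed the range of Sulf1 was not tested. Ndst2, a second N-deacetylase and N-sulfotransferase, had 0.04, 0.18 and −0.07 in MEC and −0.15, 0.07 and 0.02 in LEC. Sulf1, an extracellular sulfatase that removes 6-O-sulfates from finished chains, had −0.01, 0.03 and −0.04 in MEC and 0.16, 0.10 and 0.09 in LEC. Where replicate 2 followed the value table, all LEC pairs of Sulf1 lay above the MEC pairs. How many of all genes were so separated was not counted. In that direction the Sulf1 ratio was above 0 on 6 of 6 LEC arrays. Turned, LEC pair 2 was at −0.10, below all MEC pairs, and 4 of 6 LEC arrays were above 0. The difference of −0.12 ± 0.08 (SE) had a limma unadjusted p of 0.168 and an adjusted p of 0.9999, and turned it was −0.08. Its partner Sulf2 had 0.12, −0.11 and 0.15 in MEC and −0.08, 0.34 and 0.06 in LEC. Ugdh, which supplies UDP-glucuronic acid, had −0.12, −0.26 and 0.09 in MEC and −0.17, −0.03 and −0.05 in LEC.

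Among the core proteins, glypicans are held to the membrane by a lipid anchor and syndecans cross it. Gpc3 had 0.11, 0.03 and 0.10 in MEC and −0.12, −0.06 and −0.01 in LEC. In MEC its probe was above background in 4 of 12 readings, none of them in Cy5. In this direction the signs of Gpc3 were opposite in the regions in all 3 pairs. The share of all genes with such opposite signs was not counted. Turned, pair 2 was at −0.03 in MEC and 0.06 in LEC, which ended the pattern. In the value table's direction Gpc3 was the 1 member above 0 in all MEC pairs, where 7.17% of all genes were so, and the difference between the regions was 0.14 ± 0.08 (SE; limma unadjusted p = 0.127, adjusted p = 0.9999), or 0.08 when turned. Sdc2 had −0.02, −0.11 and 0.18 in MEC and 0.08, 0.12 and 0.12 in LEC. A second Sdc2 probe that passed the filter gave −0.01, 0.08 and 0.15 in LEC. In LEC as a whole, 2 members lay above 0 in all 3 pairs (Sdc2 and Sulf1; 10.1% of all genes) and 4 below 0 (Ext2, Gpc3, Ugdh and Ust; 7.16% of all genes). Other members held these places when replicate 2 was turned: 3 above 0 in LEC (Extl3, Hs6st1 and Xylt2; 15.1%) and 1 below (Hs6st3; 15.9%), 6 above 0 in MEC (Extl2, Glce, Hs6st2, Papss1, Sulf2 and Ust; 23.7%) and 4 below (Hs3st1, Hs6st3, Ndst3 and Sulf1; 12.7%). Glce had MEC pairs at 0.23, 0.42 and 0.27 when turned, and Gpc1 LEC pairs at −0.03, 0.44 and 0.73. Agrin, outside the rule, had −0.23, 0.13 and −0.33 in MEC and −0.12, −0.09 and 0.01 in LEC. Another 10 members (Ndst1, Ndst3, Glce, Hs6st2, Hs6st3, Papss1, Gpc1, Gpc4, Sdc3 and Sdc4) had ratios between −0.44 and 0.73, and each had pairs of both signs in either region in the value table's direction.

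**Figure D2:**
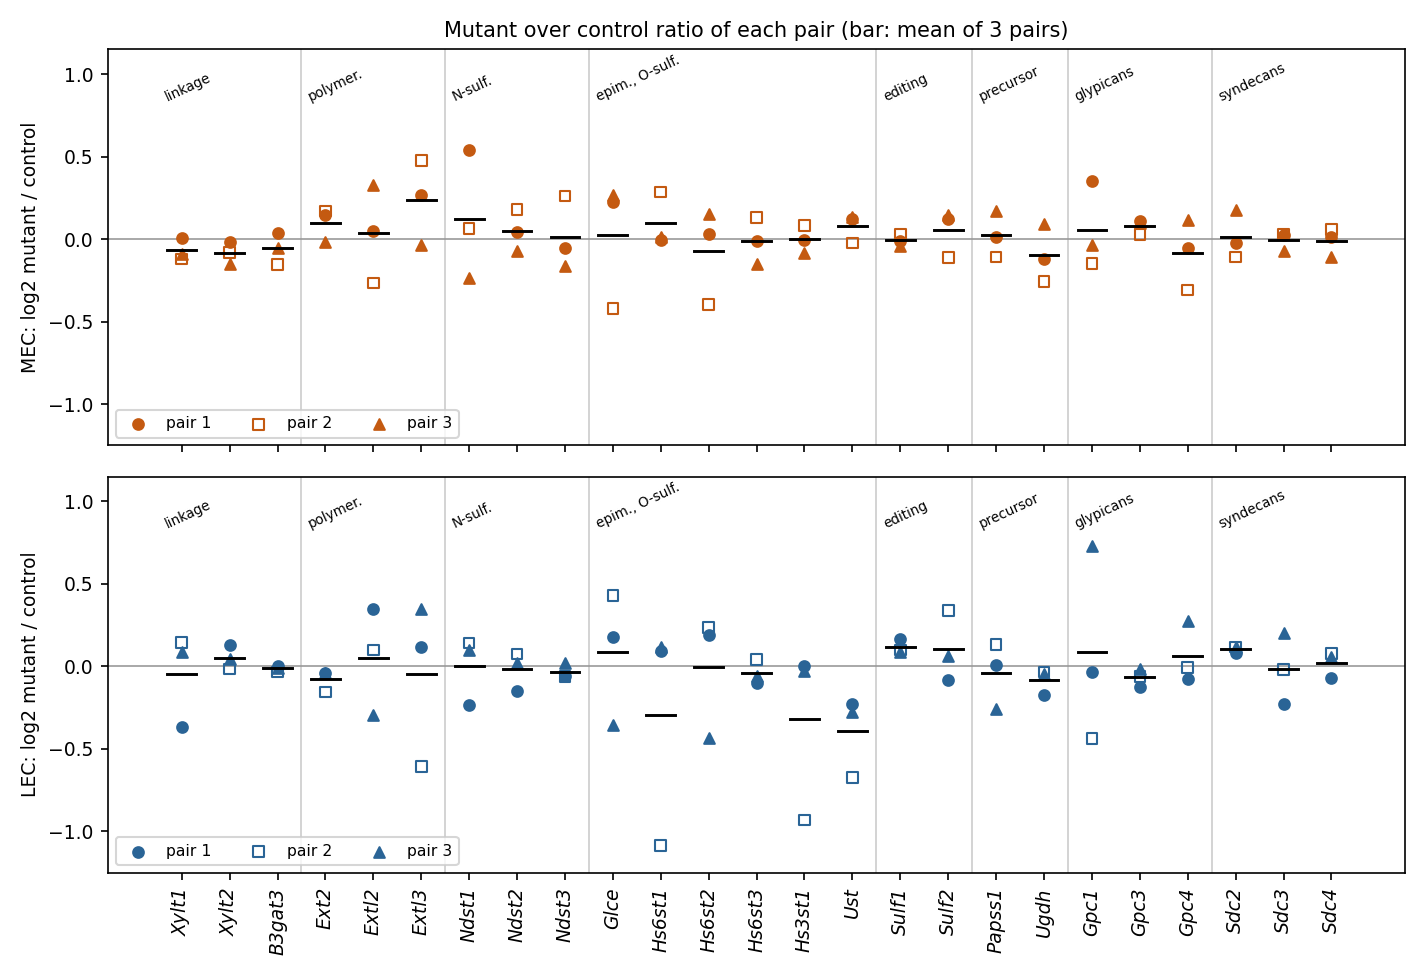
Each point is the log2 ratio of mutant over control in 1 pair (mean of its 2 dye-swapped arrays) for the 25 retained members in MEC (top) and LEC (bottom), grouped by role, and the black bar is the mean of 3 pairs. Replicate 2 is drawn in the value table's direction, and turning it as labelled mirrors its points about 0. Ust is below 0 in all 3 LEC pairs, and the squares of LEC pair 2 reach −1.09 for Hs6st1 and −0.93 for Hs3st1.

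The next question was whether the regions themselves differ. Levels are log2 intensities averaged over both dyes, and so over both genotypes of a pair, after quantile normalisation between arrays. Each level is compared for the same probe only, and region and scan session cannot be told apart. Of 25 members, 9 differed between MEC and LEC at an adjusted p under 0.05 in limma, beside 25.8% of all genes. Of the 9, 3 were higher in MEC (background 11.7%) and 6 higher in LEC (14.1%). Of the 25, 22 passed the filter in both regions, and 7 of these were called, beside 27.9% of the 9168 genes that did so. Gpc3 and Sulf1 passed through LEC alone, the region in which they were higher, so for them a difference was in part built into the choice, and B3gat3 passed through MEC alone. The 3 MEC pairs lay wholly above the LEC pairs in 4 members (19.5% of all genes) and wholly below in 10 (24.4%). The median difference, MEC minus LEC, was −0.049 over the members and −0.017 over all genes.

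Extl2 had the largest difference. This enzyme transfers an N-acetylhexosamine to the finished linker, the point at which heparan and chondroitin sulfate synthesis part. Its probe lies at chr3:116020673-116020732 (build mm8). In MEC its log2 intensities were 7.47, 7.26 and 7.35. In LEC they were 6.84, 6.53 and 6.58, with no overlap. The difference was 0.71 (95% interval 0.51 to 0.92), a 1.64-fold higher intensity in MEC (limma adjusted p = 0.00183). It stayed under the threshold in 18 of 19 other settings and was not called on the mutant channels alone, at 0.71 with an adjusted p of 0.0652, or 0.83 (adjusted p = 0.0116) when replicate 2 was turned.

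Gpc3 had the lowest value in the other direction. Its probe lies at chrX:48517190-48517249 (build mm8). Its MEC pairs were at 6.11, 6.02 and 6.03 and its LEC pairs at 6.51, 6.57 and 6.68, a difference of −0.53 (95% interval −0.66 to −0.40; limma adjusted p = 0.00118). No fold is given, because only 4 of its 12 MEC readings, and no Cy5 reading there, stood above background, and its probe entered the fit through LEC alone. It was called in all 18 other settings in which it was tested, and with 20 of 24 readings required it was not tested. The size depends on how background is treated: with the scanner software's processed signals, to which no offset of 50 was added, it was −1.65. The same setting gave 1.18 for Extl2. The scan sessions differed in Cy5 detection as given above.

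The xylosyltransferases went opposite ways. Xylt1 was at 6.28, 6.25 and 6.24 in MEC and 6.62, 6.49 and 6.42 in LEC, −0.25 with a 95% interval of −0.39 to −0.12 (limma adjusted p = 0.0163). Xylt2 was at 6.75, 6.67 and 6.74 in MEC and 6.51, 6.40 and 6.54 in LEC, 0.24 with an interval of 0.12 to 0.37 (limma adjusted p = 0.0145). In neither gene did the regions overlap. Under scaling to a common median, which moves the median of all genes to −0.187, the Xylt2 difference was −0.02, and relative to that shift it was above 0. A second Xylt2 probe, read in Cy3 alone, had means of 6.15 in MEC and 6.12 in LEC. Without MEC pair 2, Xylt1 missed the threshold (limma adjusted p = 0.0553). Xylt2 did so without MEC pair 1 (0.0530) or LEC pair 2 (0.0562).

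Ugdh was the third gene higher in MEC, at 6.34, 6.51 and 6.51 against 6.22, 6.21 and 6.11 in LEC. The difference was 0.27 (95% interval 0.13 to 0.42; limma adjusted p = 0.0163). It was not called without MEC pair 2 (adjusted p = 0.0615) or MEC pair 3 (0.0518). Papss1, the other precursor gene, had levels of 7.45, 7.49 and 7.54 in MEC and 7.38, 7.28 and 7.36 in LEC, a difference of 0.16 that missed the threshold (limma adjusted p = 0.0536).

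The remaining genes called higher in LEC, Hs6st1, Ndst2, Sulf1 and Ust, act on sulfates. Other retained members that do so were not called and lay on both sides. Hs3st1 (0.14) and Hs6st2 (0.09) were on the MEC side. On the LEC side were Sulf2 (−0.14), Ndst1 (−0.12), Hs6st3 (−0.09) and Ndst3 (−0.05). Hs6st1 was at 7.41, 7.59 and 7.65 in MEC and 7.77, 7.81 and 8.14 in LEC, −0.36 with a 95% interval of −0.60 to −0.12 (limma adjusted p = 0.0391). Ndst2 was at 6.15, 6.21 and 6.15 in MEC and 6.38, 6.35 and 6.33 in LEC, −0.19 with an interval of −0.29 to −0.08 (limma adjusted p = 0.0186). Sulf1 was at 5.99, 5.97 and 6.09 in MEC and 6.29, 6.25 and 6.14 in LEC, −0.21 with an interval of −0.34 to −0.07 (limma adjusted p = 0.0335). None of the 3 overlapped between regions, though Sulf1 in MEC was above background in 5 of 12 readings and Ndst2 in 7 of 12. With processed signals the differences of Sulf1 and Ndst2 were −0.88 and −0.62, and those of Xylt1, Xylt2, Ugdh and Ust were −0.61, 0.51, 0.65 and −0.50, all of the same sign and called. Hs6st1 kept its sign there, at −0.49, but lost the call (adjusted p = 0.0522), as it did with no filter (adjusted p = 0.07). On the mutant channels it was at −0.17 (adjusted p = 0.692) and on the control channels at −0.56 (0.0793), and with replicate 2 turned these were −0.62 (0.0247) and −0.10 (0.763). Hs6st1 lost the call without any 1 pair except LEC pair 1, with adjusted p-values up to 0.136. Ndst2 lost it without MEC pair 1, LEC pair 1 or LEC pair 2 (adjusted p = 0.0552, 0.0588 and 0.0658). Sulf1 lost it without MEC pair 1, MEC pair 2, LEC pair 1 or LEC pair 2 (adjusted p = 0.0978, 0.107, 0.0989 and 0.107).

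Ust was at 6.79, 6.85 and 6.78 in MEC and 7.21, 6.89 and 7.18 in LEC, −0.29 with a 95% interval of −0.48 to −0.09 (limma adjusted p = 0.0382). LEC pair 2, the pair with the lowest Ust ratio, was also the lowest of the LEC levels and close to the MEC values. On the control channels alone the difference was −0.52 (adjusted p = 0.0123), and on the mutant channels alone −0.05 (adjusted p = 0.850). Turning replicate 2 gave −0.31 (adjusted p = 0.340) and −0.27 (0.0336). This is the mutant over control difference given above seen from the other side, and not a further test of it. The call was kept without LEC pair 2 (−0.39, adjusted p = 0.00721) and lost when any other single pair was left out (adjusted p = 0.0771 to 0.115). The second Ust probe had means of 5.97 in MEC and 5.95 in LEC.

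**Figure D3:**
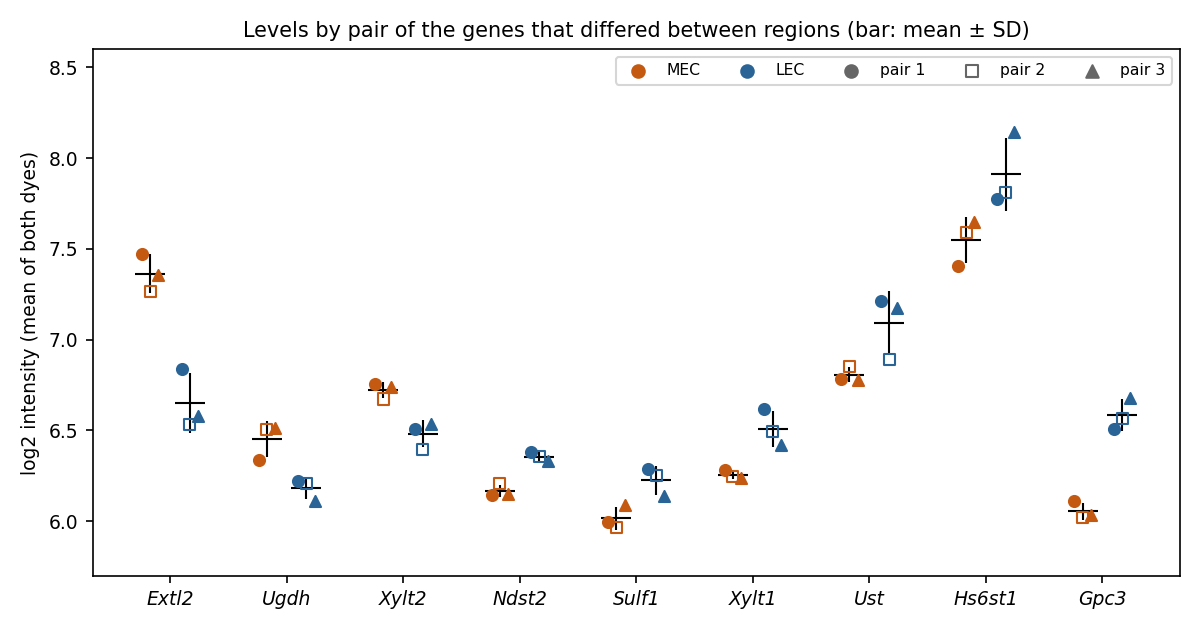
Points give the log2 intensity (mean of both dyes) of each pair in MEC and LEC for the 9 genes that differed between regions, ordered from the highest to the lowest difference, with bars for mean ± SD over 3 pairs. Extl2, Ugdh and Xylt2 lie higher in MEC, and the gap is widest for Extl2 in one direction and Gpc3 in the other.

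The polymerase subunit Ext2 showed no such gap, at 6.82, 6.94 and 6.99 in MEC and 6.86, 6.89 and 6.96 in LEC, a difference of 0.01 with a 95% interval of −0.12 to 0.15. Gpc1, a glypican of neurons, differed by −0.01 (interval −0.12 to 0.10), and Ext2 and Gpc1 were above background in all 24 readings. No syndecan was called. For Sdc2 and Sdc3, however, the probes disagreed. The brighter Sdc3 probe had means of 7.04 in MEC and 7.05 in LEC, and the second 6.28 and 6.54. The brighter Sdc2 probe had 6.27 and 6.30, and the second 6.09 and 6.28. By role, 1 of 3 polymerisation genes and 1 of 2 precursor genes were called higher in MEC. Called higher in LEC were 2 of 6 epimerase and O-sulfotransferase genes, 1 of 3 N-sulfotransferases, 1 of 2 sulfatases and 1 of 3 glypicans, and the linker had 1 of 3 in each direction. The background was 11.7% of all genes higher in MEC and 14.1% higher in LEC. The sulfatase and the glypican called, Sulf1 and Gpc3, passed the filter through LEC alone, so their calls were in part built into the choice. Agrin differed by 0.02 (interval −0.18 to 0.22).

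**Figure D4:**
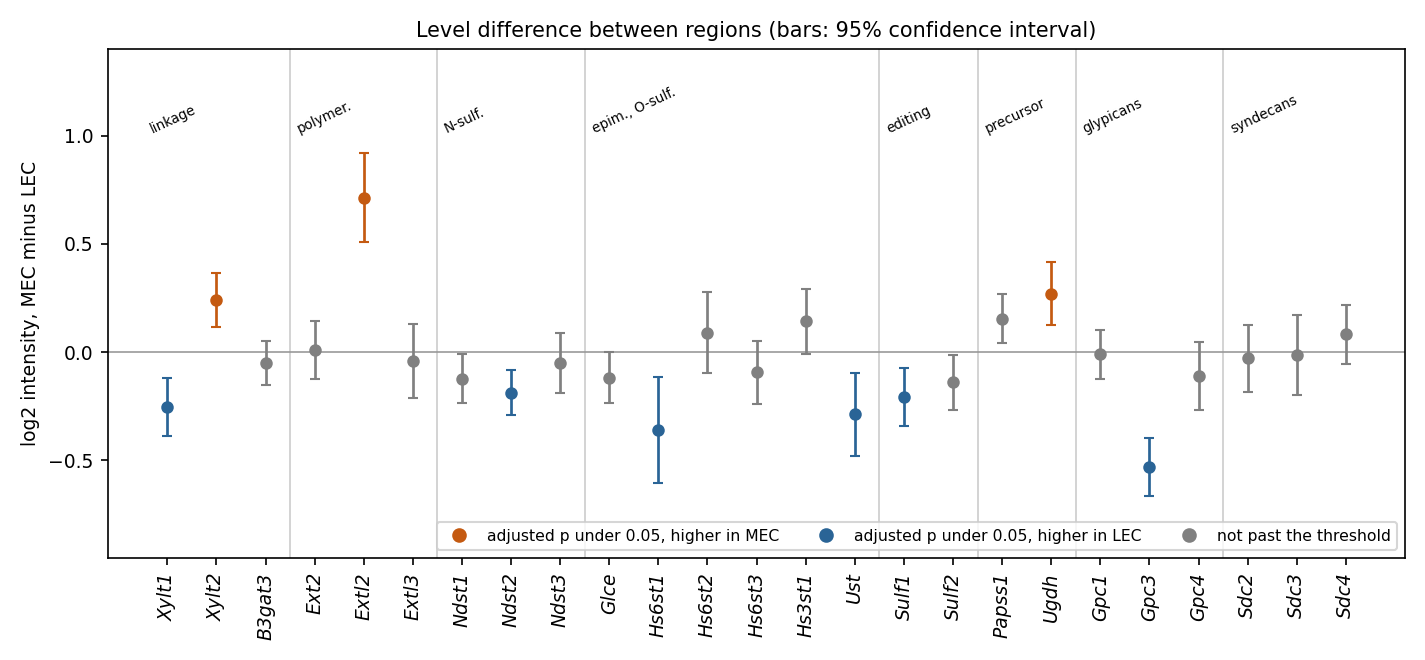
Points give the difference of log2 intensity, MEC minus LEC, for the 25 retained members grouped by role, with the 95% confidence interval of the limma fit. The 3 orange genes (Xylt2, Extl2, Ugdh) passed the threshold on the MEC side and the 6 blue genes on the LEC side, and the intervals of Ext2 and Gpc1 are centred near 0.

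Cell type markers moved between the regions too, where 11.7% of all genes were called higher in MEC and 14.1% higher in LEC. The mean level of 7 oligodendrocyte genes was 7.04 to 7.18 by pair in MEC and 6.70 to 6.86 in LEC, with 4 of the 7 called higher in MEC and 1, Mbp, higher in LEC. The mean of 5 excitatory neuron genes was 8.57 to 8.72 in MEC and 8.46 to 8.57 in LEC, and the lowest MEC pair and the highest LEC pair were both at 8.57. Within that list called genes went opposite ways: Neurod6 (1.16; limma adjusted p = 0.000544) and Snap25 (0.52; 0.00539) were higher in MEC and Nrgn (−1.16; 0.0101) in LEC. The mean of 8 inhibitory neuron genes was 7.18 to 7.37 in MEC and 7.215 to 7.265 in LEC, and there Pvalb (0.55), Slc32a1 (0.42) and Gad1 (0.31) were called higher in MEC and Sst (−0.88) higher in LEC. For 9 astrocyte genes it was 7.98 to 8.16 and 7.61 to 8.21, and for 8 vessel genes 6.17 to 6.23 and 6.14 to 6.33. Their part in the level differences of the members was not tested.

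Other genes of the same and neighbouring pathways were compared in the same fits. Beside the counts between regions below, 25.8% of all genes were called, 11.7% higher in MEC and 14.1% higher in LEC. Of 17 further genes of heparan sulfate synthesis and cores, 8 were retained, and none was called in any comparison of mutant and control or between regions; Nrxn2, a neurexin that can carry heparan sulfate, came nearest on level, at −0.20 (limma adjusted p = 0.0863), followed by Fam20b, the kinase that phosphorylates the linker xylose, at −0.14 (adjusted p = 0.203). Of 15 chondroitin and dermatan synthesis genes 8 were retained, and Chsy3, a chondroitin synthase, was higher in MEC at 0.16 (limma adjusted p = 0.0280), while Chst15, a sulfotransferase, missed the threshold at 0.14 (adjusted p = 0.0557). Of 10 chondroitin sulfate proteoglycan cores 7 were retained, with Ncan (neurocan) higher in LEC at −0.52 (limma adjusted p = 0.0105) and Cd44 higher in MEC at 0.23 (adjusted p = 0.0272). Of 18 receptors and ligands that bind heparan sulfate 9 were retained, 2 called higher in MEC and 3 in LEC. The ligand Ptn (pleiotrophin) was higher in MEC at 0.95 (limma adjusted p = 0.000103), and so was the receptor Ptprd at 0.75 (adjusted p = 0.0025). Of 9 degradation genes 7 were retained, 2 higher in MEC and 3 higher in LEC; Gusb, the lysosomal glucuronidase, was higher in MEC at 0.33 (limma adjusted p = 0.0043), and Sgsh, the sulfamidase, higher in LEC at −0.30 (adjusted p = 0.00998). No gene of these 5 lists was called by limma for the mutant effect in MEC or in LEC. At an unadjusted limma p under 0.05, in the value table's direction, there were 0 in MEC (background 1.12%) and 1 in LEC (1.54%). The 1 gene was Cspg5, at −0.19 (limma unadjusted p = 0.0230).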

How the data were processed

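RNA of laser-captured neurons was measured on 12 arrays, and the pair (mean of its 2 dye-swapped arrays) was the replicate, with 3 pairs per region. The deposited scanner files hold, as intensity, a mean signal and a median local background per spot and dye, and processed intensity that the authors' software subtracted for background and balanced between dyes. The deposited log10 ratios of Cy5 over Cy3, made by the authors' software from the processed intensity, served to match arrays to the value table. The authors' value table covers 41548 spots, with a log2 ratio on each array and its centring not stated. The software was Agilent Feature Extraction, version 9.5.1.1 per the file headers and 8.5.1.1 per the submitters' processing notes. Probe coordinates are of build mm8, as the files give them.

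The analysis used limma 3.58.1 and data.table (version 1.17.8) under R 4.3.3. The normexp method corrected background (offset 50), loess balanced the dyes, and spots flagged as outliers were left out. Table columns matched single arrays with correlations of 0.995 to 0.999 in size over 9166 bright spots (next highest 0.657), and this match set array assignment and direction. The filter left 12987 of 41174 probes and 10744 genes, each by its probe of highest mean intensity. A model with a mean per region was fitted over all 6 pairs and all genes. Limma p-values are two-sided, Benjamini-Hochberg adjusted over all genes with a threshold of 0.05, and measure the spread between these pairs. Alternatives changed background correction, signals, dye balance, filter, probe choice, array assignment and direction, pairs, channels and scaling. They were changed one at a time, except that the files and dyes as labelled set assignment and direction together, and that single channels were also run with replicate 2 turned, which was added after seeing the data. Gene names outside the members came through RefSeq accessions and symbols for all but 8148 probes.

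The members, gene lists and tests were chosen with earlier results of these data known. Genes named by pair are those called in any comparison or among the 6 smallest p-values of the members in each. The 2 of smallest p in a list are also named. Mbp, Cspg5, Papss1, Gpc1, Sdc3, Glce, Ndst3, Ndst1, Hs6st2 and Hs6st3 were chosen after their values were seen. So were the markers named of neurons, of microglia, and of blood, choroid plexus and meninges.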

Additional observations from a re-analysis of the deposited data

Results flagged for a closer look

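In the value table's direction of replicate 2, Gpc3 was the 1 retained member whose mutant over control ratios had opposite signs in the regions in every pair: above 0 in all 3 MEC pairs and below 0 in all 3 LEC pairs. Of all genes, 7.17% were above 0 in all 3 MEC pairs and 7.16% below 0 in all 3 LEC pairs. The share of all genes with both was not counted, so it is open how unusual the Gpc3 pattern is. The difference, MEC minus LEC, was 0.144 on the log2 scale, with limma unadjusted p = 0.127 and adjusted p = 0.9999. With replicate 2 turned as labelled, pair 2 was at −0.0288 in MEC and 0.0617 in LEC, the difference was 0.0837, and no retained member had opposite signs in the regions in every pair. In MEC its probe was above background in 4 of 12 readings.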

How the results depend on the processing

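Under the alternatives run, no member was called for a mutant effect in any of the 4 comparisons. With replicate 2 turned as labelled, mutant effects reversed in LEC for Ext2 (0.0254), Hs3st1 (0.302), Hs6st1 (0.431) and Ust (0.0566), in MEC for Ext2 (−0.0138), Extl3 (−0.0827) and Ugdh (0.0763), between regions for Ext2 (−0.0391) and Hs3st1 (−0.36), and over both regions for Hs3st1 (0.122), Ugdh (0.00721) and Ust (0.0748). With files and dyes as labelled the reversed values were −0.0138 for Ext2, −0.0827 for Extl3 and 0.0763 for Ugdh in MEC and 0.0061 for Ugdh over both regions. Without both pairs numbered 2, Hs6st1 in LEC was 0.103 and Hs3st1 between regions −0.0322. Leaving out each pair in turn gave −0.497 to 0.103 for Hs6st1 in LEC, and the value of 0.103 came without LEC replicate 2. With no filter, B3gat3 in MEC was 0.0149. For all these reversals the cause was not tested.

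Counts over all genes changed as follows. With replicate 2 turned, genes at an unadjusted limma p under 0.05 numbered 1231 in MEC, 1081 in LEC, 1309 over both regions and 989 between regions, against 120, 165, 234 and 56. Over both regions 1 gene was called with processed signals and 1 with the value table, in MEC 1 gene with the MEC pairs alone, and 0 to 1 in both comparisons on leaving out each pair in turn, where the 1 came without LEC replicate 2. None of these genes is a member. Level differences numbered 1728 to 2556 on leaving out each pair in turn (1728 without MEC replicate 1, 1778 without LEC replicate 2), 726 without both pairs numbered 2, 517 on control channels, 403 on mutant channels, 825 and 1703 on these with replicate 2 turned (tried after the data were seen) and 5825 with a common median (155 higher in MEC, 5670 higher in LEC, against 1254 and 1518), where the median of all genes lay at −0.187. Relative to that median all 9 called members kept their sign, though Xylt2 itself was at −0.0185. Control channels called 4 of the 9 members and mutant channels 1 (2 and 4 with replicate 2 turned), and the pairs without number 2 called 3.

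Whether the replicate numbers pair the samples could not be told from the values. Deviations of same-numbered MEC and LEC pairs correlated at −0.181, −0.00116 and −0.358 for ratios. Those of pairs with unlike numbers correlated at −0.383 to 0.439. With the replicate block, 0 genes were called for the mutant effect over both regions or between regions, and 2414 for level, with 7 of the 9 members among them (Sulf1 and Ust not). A slide or scan block was not run, since each array is its own slide and each region its own scan session. Dim Cy5 signal limits the readings, with 10 of 25 retained members above background in fewer than 24 readings.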
